A study of Homo sapiens with 2 samples.

Results

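Heat shock proteins and their co-chaperones were represented by 10 genes, taken by name from the 36601 genes of the deposited matrix: HSPA1A, HSPA1B, DNAJB1, HSPH1, BAG3, HSP90AA1, HSPA8, HSPB1, HSPD1 and HSPE1. All 10 were measured and all passed the minimum level used for the comparisons. The cells were OVCAR5, a human ovarian carcinoma line that carried an IFNy-sensing reporter (IFNy is interferon gamma), and were sorted as CFP+, the mark that the labels give for bystander tumour cells. They had grown as tumours in immunodeficient NSG-b2m-/- mice, and 5 tumours were pooled after mincing and a digestion with TH Liberase and DNase I of 20 min at 37 °C. The labels list 15 conditions of 6 h in culture: 5 with 100 ng/ml IFNy plus 10 ng/ml TNFa (tumour necrosis factor), 5 with 10 ng/ml TNFa alone and 5 unstimulated. All of them share the reporter, the passage through mice, the digestion, the culture and the sort, so no untouched cells stand beside them. A gene expression library and a hashtag library were made from the same cells, with 5267 of 5269 barcodes holding counts in both.

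Each cell carried a pair of hashtags, and 3144 of 3538 kept cells could be given to 1 of 15 pairs, here called hashed samples. The hashtags bear only numbers, and the labels do not say which treatment each received. The hashed samples were therefore placed in 3 sets of 5 by inference from earlier results of these data, called both-cytokine-like, TNF-like and unstimulated-like, and a set's name is not a label. Genes of this kind bore on that inference and are no independent check of it: IRF1, a transcription factor induced by IFNy, had 36.6 to 42.6 UMIs (counted molecules) per 10000 UMIs in both-cytokine-like samples, 1.84 to 4.01 in TNF-like samples and 0.738 to 1.08 in unstimulated-like samples. NFKBIA, the inhibitor that NF-kB induces, had 16.6 to 20.1 in both-cytokine-like samples, 10.5 to 15.9 in TNF-like samples and 1.12 to 1.47 in unstimulated-like samples. Because the sets are inferred and all cells passed through 1 pooled library, no test was made between sets. Each comparison gives the range over 5 hashed samples, the log2 ratio of the set medians, and whether the samples of the sets overlap. The both-cytokine-like set held 919 cells (53 to 347 per hashed sample), the TNF-like set 1277 (49 to 630) and the unstimulated-like set 948 (71 to 304), and the summed depth was 582102 to 7324691 UMIs per hashed sample.

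Heat shock proteins are molecular chaperones: they hold, refold or hand on proteins that have lost their shape. HSP70 proteins bind exposed peptide stretches in a cycle driven by ATP, which J-domain proteins start and nucleotide exchange factors end, and HSP90 takes over clients such as kinases and steroid receptors. In stressed cells heat shock factor 1 (HSF1) binds heat shock elements, which are inverted repeats of the unit GAA, and induces HSPA1A, HSPA1B, DNAJB1, HSPH1, HSP90AA1, BAG3 and others. HSPA8, HSP90AA1 and the mitochondrial chaperonin of HSPD1 and HSPE1 are also made at high levels in unstressed growing cells.

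The start regions of most of the genes hold the letters of a heat shock element. From RefSeq (GRCh38.p14), windows of 300 bases (250 before the transcription start and 50 from it) were found for all 10 genes in 14 entries, of 35116 in the table. A heat shock element of 2 units, GAANNTTC or TTCNNGAA, occurred in 8 of 14 entries, against 13.5% of all 35116 windows. Counted by gene, with any window of a gene sufficing, it occurred in 7 of the 10 genes, against 16.2% of 27305 genes. Both motifs read the same on the 2 strands and can overlap each other. The run of 3 units, GAANNTTCNNGAA on either strand, occurred in 3 of the 14 entries, 1 each of HSP90AA1, HSPA8 and HSPD1, against 0.49% of all windows. No match was found in the windows of BAG3, HSPE1 and HSPH1, which says only that these letters are not there. The windows below are a selection of those with a match, and that of HSPB1, which also has a match, is not shown. The matched bases are in capitals, and each sequence runs 5′ to 3′ on the gene's strand. HSPA1A lies at chr6:31815293-31815592 (plus strand) and HSPA1B at chr6:31827488-31827787 (plus). DNAJB1 lies at chr19:14518348-14518647 (minus), HSP90AA1 at chr14:102086995-102087294 (minus), HSPA8 at chr11:123062087-123062386 (minus) and HSPD1 at chr2:197499791-197500090 (minus).
HSPA1A: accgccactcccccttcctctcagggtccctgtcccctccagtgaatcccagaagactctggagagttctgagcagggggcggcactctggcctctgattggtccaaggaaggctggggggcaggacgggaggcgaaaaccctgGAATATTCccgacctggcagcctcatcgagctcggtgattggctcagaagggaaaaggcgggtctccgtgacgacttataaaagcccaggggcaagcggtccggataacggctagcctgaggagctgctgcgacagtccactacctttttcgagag
HSPA1B: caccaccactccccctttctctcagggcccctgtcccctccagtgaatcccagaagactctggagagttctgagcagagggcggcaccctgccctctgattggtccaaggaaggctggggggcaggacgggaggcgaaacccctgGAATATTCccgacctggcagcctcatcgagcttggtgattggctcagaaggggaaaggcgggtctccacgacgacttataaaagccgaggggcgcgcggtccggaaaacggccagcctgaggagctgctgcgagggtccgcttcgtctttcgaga
DNAJB1: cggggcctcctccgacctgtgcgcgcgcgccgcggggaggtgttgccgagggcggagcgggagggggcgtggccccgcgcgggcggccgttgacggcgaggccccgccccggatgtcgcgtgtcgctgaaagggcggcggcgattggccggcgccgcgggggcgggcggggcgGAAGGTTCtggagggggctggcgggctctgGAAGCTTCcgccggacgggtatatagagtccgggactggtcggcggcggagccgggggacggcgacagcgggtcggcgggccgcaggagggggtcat
HSP90AA1: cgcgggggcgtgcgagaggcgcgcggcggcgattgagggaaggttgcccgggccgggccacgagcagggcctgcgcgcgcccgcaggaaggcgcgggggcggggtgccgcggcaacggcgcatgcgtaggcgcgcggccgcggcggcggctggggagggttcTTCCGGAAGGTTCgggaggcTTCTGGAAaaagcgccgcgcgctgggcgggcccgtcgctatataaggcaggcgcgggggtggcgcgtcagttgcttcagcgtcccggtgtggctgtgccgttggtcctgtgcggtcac
HSPA8: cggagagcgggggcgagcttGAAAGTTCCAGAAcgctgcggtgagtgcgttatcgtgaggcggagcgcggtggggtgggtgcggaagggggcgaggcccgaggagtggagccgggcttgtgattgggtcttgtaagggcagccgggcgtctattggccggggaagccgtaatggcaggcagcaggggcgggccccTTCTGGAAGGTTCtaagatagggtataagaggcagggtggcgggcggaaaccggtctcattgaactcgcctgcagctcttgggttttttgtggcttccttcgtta
HSPD1: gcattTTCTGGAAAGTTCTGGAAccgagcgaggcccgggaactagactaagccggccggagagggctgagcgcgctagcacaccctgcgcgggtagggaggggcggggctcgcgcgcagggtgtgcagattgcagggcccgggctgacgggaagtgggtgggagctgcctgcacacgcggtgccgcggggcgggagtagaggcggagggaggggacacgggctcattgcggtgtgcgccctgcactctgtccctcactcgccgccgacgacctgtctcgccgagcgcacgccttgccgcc

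HSPA1A and HSPA1B carry the same element, GAATATTC, beginning at positions -106 and -105, where -1 is the base before the start. In the window shown, DNAJB1 has 2 elements, beginning at -77 and -47. The elements of HSP90AA1 overlap in a run that begins at -88, with a further element at -68. HSPA8 has an overlapping pair at -55 and -50 and another at -230 and -225, and the HSPD1 elements run together from -245.

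The 10 genes had lower median levels in the sets with inferred cytokine exposure than in the unstimulated-like set, by small factors. Between both-cytokine-like and unstimulated-like samples all 10 medians were lower, as were 72.4% of all 9402 tested genes. This was 8 of 10 when samples were scaled by median-of-ratios size factors, where HSPH1 turned to a log2 ratio of 0.042 and HSPB1 to 0.024. It was also 8 of 10 among the 661 cells of no more than 10% mitochondrial UMIs, where BAG3 turned to 0.51 and HSPA1B to 0.25 and HSPA1A stood at -0.020. The 72.4% does not apply to either of these settings. In this and the following comparisons, the share of all genes with lower medians is not given for them. As first scaled, for DNAJB1, HSPB1, HSPD1 and HSPE1 every both-cytokine-like sample lay below every unstimulated-like sample. This count of 4 of 10 stands beside 19.8% of 9402 tested genes that lay lower in the same way, and 8.53% that lay higher. The median log2 ratio was -0.43 over the 10 genes and -0.24 over all tested genes. Between TNF-like and unstimulated-like samples all 10 medians were again lower (61.2% of all genes; 8 of 10 under that scaling, where HSPA8 turned to 0.042 and HSPD1 to 0.025, and 4 of 10 under that mitochondrial limit), by a median log2 of -0.16 beside -0.067 for all tested genes, and of the 10 only HSPE1 did not overlap (1 of 10, against 4.08% of all genes lower and 4.02% higher). Between both-cytokine-like and TNF-like samples 9 of 10 medians were lower (72.0% of all genes), and 5 of 10 under median-of-ratios scaling. No gene was free of overlap there (0 of 10, against 9.38% of all genes lower and 5.67% higher). The median log2 was -0.15 beside -0.17 for all tested genes. Under median-of-ratios scaling the all-gene medians were -0.014, -0.0028 and -0.012 in the order of comparisons given here.

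The counts depended on the scaling. When hashed samples were scaled by median-of-ratios size factors, which bring the median of all genes to a log2 ratio of -0.014 in that comparison, no gene of the 10 was free of overlap in any comparison, and the median log2 ratio between both-cytokine-like and unstimulated-like samples was -0.22. The share of all genes lying lower was then 9.58%, and the share lying higher 13.2%. Summed over the 10 genes, levels ran from 41.1 to 55.6 UMIs per 10000 in both-cytokine-like samples (median 43.0), from 45.1 to 60.3 in TNF-like samples (median 52.5) and from 50.9 to 67.4 in unstimulated-like samples (median 56.3). These ranges overlap.

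**Figure D1:**
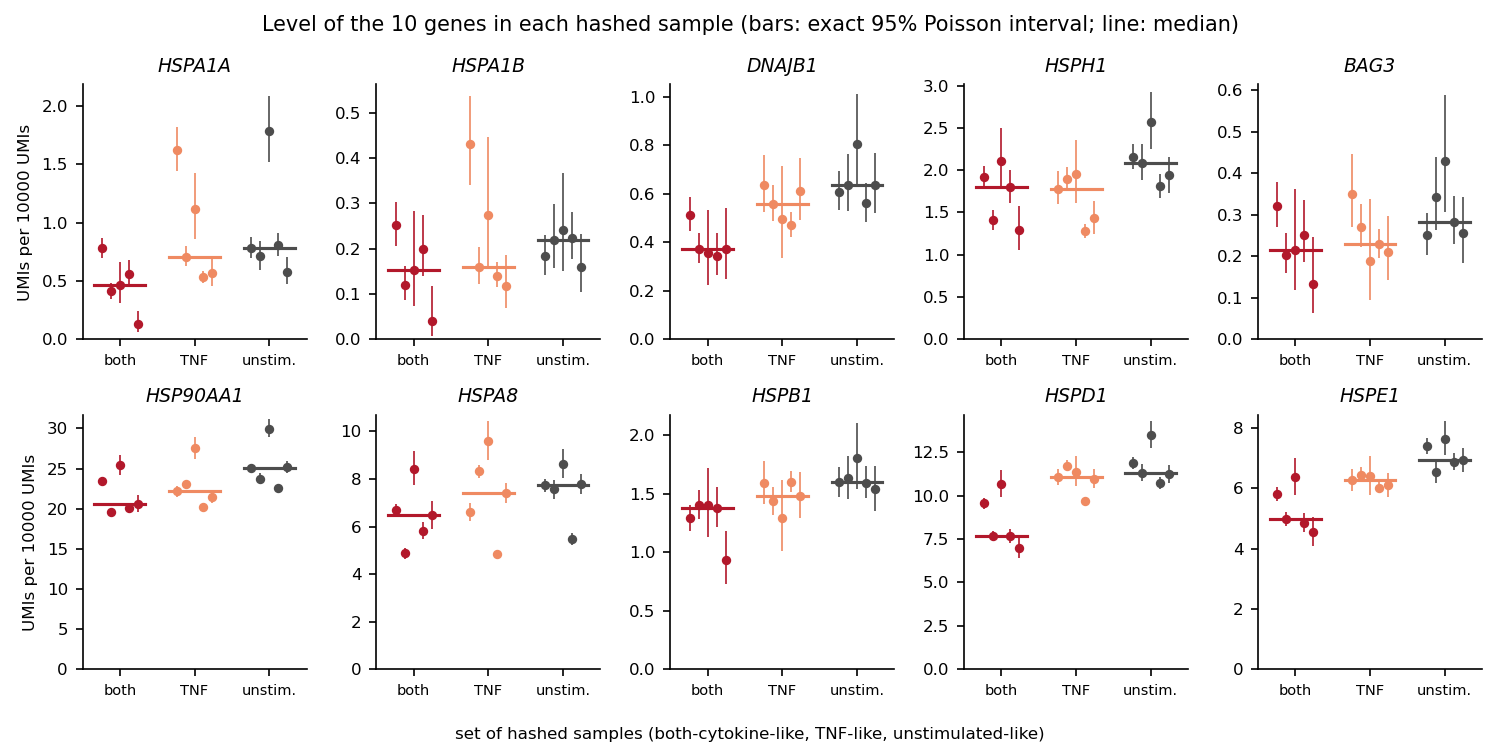
Level of each of the 10 genes in UMIs per 10000 UMIs (vertical axis, from 0) in 15 hashed samples, grouped by set; points are hashed samples, bars exact 95% Poisson intervals and lines set medians. DNAJB1, HSPB1, HSPD1 and HSPE1 lie lower in every both-cytokine-like sample than in every unstimulated-like sample, which median-of-ratios scaling turned to overlap, and HSPA1A is spread from 0.134 to 1.79.

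DNAJB1, the inducible J-domain protein that starts the HSP70 cycle, had the most negative ratio of the 10 between both-cytokine-like and unstimulated-like samples, next to HSPA1A. It had 0.343, 0.355, 0.373, 0.374 and 0.514 UMIs per 10000 in both-cytokine-like samples, 0.471, 0.498, 0.560, 0.611 and 0.635 in TNF-like samples, and 0.560, 0.609, 0.635, 0.638 and 0.804 in unstimulated-like samples. The highest both-cytokine-like sample thus stayed below the lowest unstimulated-like one, while it lay above the lowest TNF-like sample. The log2 ratio was -0.77 for both-cytokine-like against unstimulated-like samples and -0.18 for TNF-like against unstimulated-like samples.

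HSPA1A and HSPA1B, the stress-inducible HSP70 genes, varied widely between samples of the same set. HSPA1A had 0.134, 0.411, 0.462, 0.558 and 0.782 UMIs per 10000 in both-cytokine-like samples, 0.534, 0.571, 0.710, 1.12 and 1.62 in TNF-like samples, and 0.581, 0.713, 0.782, 0.808 and 1.79 in unstimulated-like samples. The sets overlap widely, and the lowest hashed sample (HTO4+HTO9, both-cytokine-like) and the highest (HTO3+HTO7, unstimulated-like) hold 64 and 71 cells. The log2 ratio between both-cytokine-like and unstimulated-like medians was -0.76, and for HSPA1B it was -0.51, with overlap in each case. The coding sequences of this pair have 1923 bases each and differ at 4, an identity of 99.8%, so how their counts divide is uncertain where reads reach the coding part. Their 3′ UTRs, of 264 and 379 bases, align locally at 61.3% identity. Summed, the pair had 0.174 to 1.03 in both-cytokine-like samples, 0.674 to 2.05 in TNF-like samples and 0.741 to 2.03 in unstimulated-like samples.

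HSPH1, the HSP110 exchange factor that also holds unfolded proteins, had 1.30 to 2.11 UMIs per 10000 in both-cytokine-like samples, 1.28 to 1.96 in TNF-like samples and 1.81 to 2.57 in unstimulated-like samples. BAG3, an HSP70 exchange factor that steers clients to autophagy, had 0.134 to 0.322 in both-cytokine-like samples, 0.189 to 0.350 in TNF-like samples and 0.250 to 0.430 in unstimulated-like samples. Both genes overlap between all sets, and BAG3 rests on few molecules: 286 UMIs in the both-cytokine-like, 384 in the TNF-like and 339 in the unstimulated-like set.

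HSPD1 and HSPE1 encode the barrel and the lid of the mitochondrial chaperonin and stand head to head on chromosome 2. HSPD1 had 6.97, 7.68, 7.68, 9.54 and 10.7 UMIs per 10000 in both-cytokine-like samples, 9.67, 10.96, 11.1, 11.4 and 11.7 in TNF-like samples, and 10.7, 11.2, 11.3, 11.9 and 13.5 in unstimulated-like samples. The highest both-cytokine-like sample and the lowest unstimulated-like sample are close, at 10.67 and 10.72. The log2 ratio was -0.56 for both-cytokine-like against unstimulated-like samples, and -0.032 for TNF-like against unstimulated-like samples.

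HSPE1 had 4.54, 4.85, 4.97, 5.80 and 6.37 UMIs per 10000 in both-cytokine-like samples, 6.01, 6.10, 6.26, 6.39 and 6.43 in TNF-like samples, and 6.52, 6.87, 6.92, 7.39 and 7.64 in unstimulated-like samples. Both sets with inferred cytokine exposure lay below the unstimulated-like set without overlap, with log2 ratios against it of -0.48 for both-cytokine-like and -0.14 for TNF-like samples. In GENCODE 29 (GRCh38) the gene bodies, at chr2:197486581-197516737 for HSPD1 and chr2:197499994-197503457 for HSPE1, overlap on opposite strands, and the sources used here do not say whether counting used the strand. Both genes also have many pseudogenes named for them (17 and 26), which could share reads.

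HSPB1, a small heat shock protein that holds unfolding proteins and guards the cytoskeleton, had 0.935, 1.29, 1.38, 1.403 and 1.403 UMIs per 10000 in both-cytokine-like samples, 1.29, 1.43, 1.48, 1.59 and 1.60 in TNF-like samples, and 1.54, 1.59, 1.60, 1.63 and 1.81 in unstimulated-like samples. The gap between the both-cytokine-like and unstimulated-like sets is small, with a log2 ratio of -0.21 that changed sign under median-of-ratios scaling.

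HSP90AA1, the inducible cytosolic HSP90, had 19.6 to 25.4 UMIs per 10000 in both-cytokine-like samples, 20.3 to 27.6 in TNF-like samples and 22.6 to 30.0 in unstimulated-like samples. HSPA8, the constitutive HSP70, had 4.87 to 8.43 in both-cytokine-like samples, 4.85 to 9.59 in TNF-like samples and 5.47 to 8.62 in unstimulated-like samples. Neither was free of overlap in any comparison. HSP90AA1 contributed 86255 of the 193066 UMIs of the 10 genes, and without it the summed medians were 22.9 in both-cytokine-like samples, 30.3 in TNF-like samples and 31.1 in unstimulated-like samples.

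**Figure D2:**
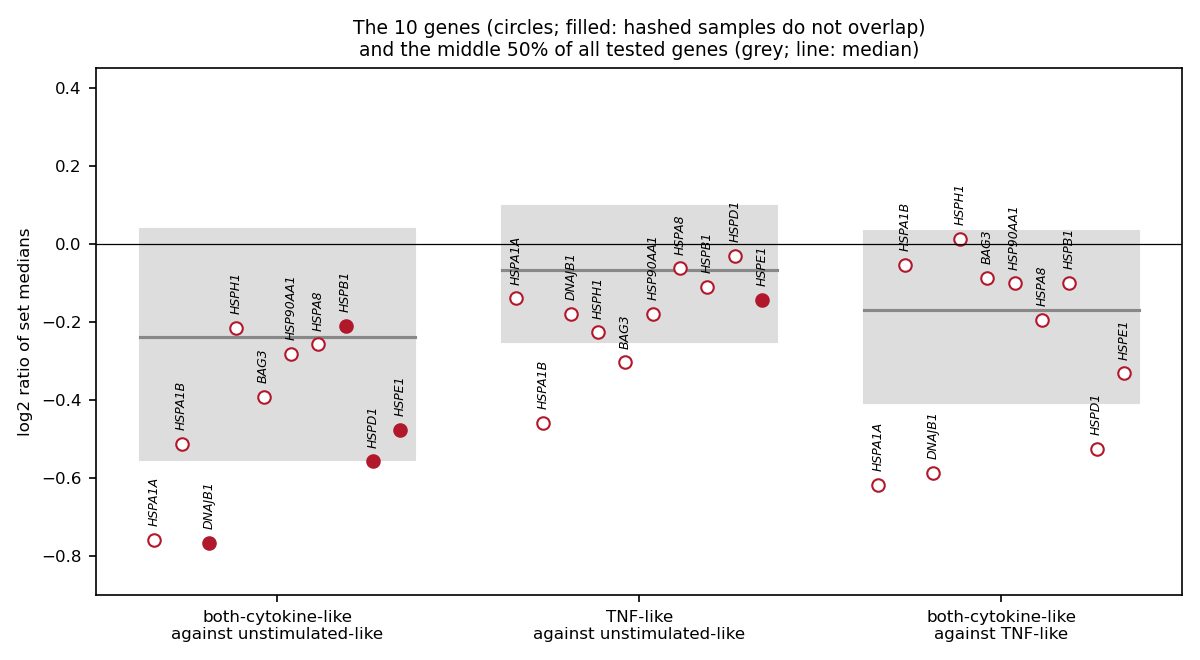
Log2 ratio of set medians (vertical axis) for the 10 genes in each of 3 comparisons (horizontal axis); filled circles mark genes whose hashed samples do not overlap, grey boxes the middle 50% of 9402 tested genes and grey lines their median. In both-cytokine-like against unstimulated-like samples all 10 circles lie under 0, from -0.77 to -0.21, and 8 lie below the all-gene median of -0.24. Under median-of-ratios scaling HSPH1 and HSPB1 lie just above 0.

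A few hashed samples carried much of the spread. HTO3+HTO7, an unstimulated-like sample of 71 cells, was the highest of 15 for 8 of the 10 genes, and HTO4+HTO9, a both-cytokine-like sample of 64 cells, was the lowest for 6. The median mitochondrial share was 14.7% in HTO3+HTO7, the highest of the 15, which ranged from 12.2%. A list of genes of G2 and mitosis had 0.601 to 4.80 UMIs per 10000 in both-cytokine-like samples, 3.33 to 4.66 in TNF-like samples and 2.17 to 6.32 in unstimulated-like samples. Without cells holding 2 or more UMIs of that list, 2 of the 10 genes were free of overlap between both-cytokine-like and unstimulated-like samples in place of 4, and 0 in place of 1 between TNF-like and unstimulated-like samples. HSPD1 and HSPE1 then overlapped narrowly: the highest both-cytokine-like samples were at 10.4 and 6.27, the lowest unstimulated-like samples at 10.1 and 6.15. Their both-cytokine-like medians stayed lower, at 7.53 against 11.1 for HSPD1 and 4.78 against 6.57 for HSPE1. The share of all genes without these cells is not given. The part that cycling cells play in the ratios was not tested further.

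Across cells, HSPA1A was not spread evenly but concentrated in rare cells, and the summed level of each of the 10 genes was high over those cells. Of 3144 cells, 67.8% held no HSPA1A UMI, while 34 cells (1.08%) held 10 or more, up to 72, and these 34 cells carried 45.3% of all its UMIs. The limit of 10 was chosen after the counts were seen, so HSPA1A itself is only a description here. Summed over the same 34 cells, every other gene of the 10 was also higher than in the other cells, although 3 of the 34 held no HSPB1 UMI. The share of all tested genes that were higher in these cells is not given, so this count has no background beside it. Beside HSPA1A, the highest ratios among the 10 were those of HSPA1B, BAG3, DNAJB1 and HSPH1. HSPA1B had 7.77 UMIs per 10000 (exact 95% Poisson interval 6.96 to 8.65) in these cells, against 0.103 (0.0932 to 0.114) in the others. Its coding sequence is nearly that of HSPA1A, on which the cells were chosen. Reads of HSPA1A counted for HSPA1B could therefore add to its ratio, which was not tested. BAG3 had 4.48 (3.87 to 5.17) against 0.216 (0.201 to 0.231), a ratio of 20.8. DNAJB1 had 4.95 (4.31 to 5.67) against 0.475 (0.453 to 0.497), a ratio of 10.4. HSPH1 had 12.3 against 1.62, a ratio of 7.59.

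The other 5 genes were higher over these cells by smaller factors. HSP90AA1 had 85.5 UMIs per 10000 in the 34 cells against 21.8 in the others, a ratio of 3.92. HSPE1, HSPB1, HSPD1 and HSPA8 had ratios of 2.63, 2.43, 2.35 and 2.26. ZFAND2A, another HSF1 target and an arsenite-inducible partner of the proteasome, had 6.06 in the 34 cells against 0.954 in the others. HSF1 itself had 0.751 (0.514 to 1.06) against 0.850 (0.821 to 0.880), with overlapping intervals. ZFAND2A was also among the genes ranked nearest to HSPA1A across cells, so it is not independent of it.

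The pattern was seen in most of these cells and hashed samples. HSPA1B was seen in 33, BAG3 in 32 and DNAJB1 in 33 of the 34 cells, against 348 (HSPA1B), 640 (BAG3) and 1183 (DNAJB1) of the others. Because reads may be divided between HSPA1A and HSPA1B, the HSPA1B count is not independent of the choice of cells. Free RNA was not measured, since every cell here is a tumour cell of 1 line. The 34 cells came from 12 of the 15 hashed samples, and BAG3, DNAJB1, HSPH1, HSP90AA1 and HSPD1 were higher in them than in the other cells in 12 of 12 samples, HSPA1B, HSPA8 and HSPE1 in 11 and HSPB1 in 10. No share of all genes higher in this way is given beside these sample counts. Depth differed little, with a median of 12672.5 UMIs per cell in the 34 and 11499.5 in the others, and the median mitochondrial share was 11.2% in the 34 and 13.1% in the others. The integrated stress response, a separate programme that runs through ATF4 and CHOP, was also higher: its list of 20 genes stood at 23.99 UMIs per 10000 in the 34 cells against 8.10 in the others, and DDIT3, which encodes CHOP, at 3.85 against 0.605. ATF3, of the same list, stood at 2.02 against 0.227, a ratio of 8.90, which is above that of HSPH1. Limits of 5 and 20 UMIs gave 57 and 25 cells, with BAG3 ratios of 12.8 and 21.2.

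The share of these cells had overlapping intervals in the 3 sets. They were 10 of 919 cells (1.09%, exact binomial 95% interval 0.523 to 1.99) in both-cytokine-like samples, 15 of 1277 (1.17%, 0.659 to 1.93) in TNF-like samples and 9 of 948 (0.949%, 0.435 to 1.79) in unstimulated-like samples. Single hashed samples ran from 0% to 1.73% in the both-cytokine-like set, from 0.635% to 3.40% in the TNF-like set and from 0% to 2.82% in the unstimulated-like set, the 3 samples at 0 having 53, 64 and 137 cells, which allow shares of up to 5.66%, 4.69% and 2.19%. The intervals cover counting error only and not this spread between samples, and a difference between sets inside them was not detectable with this number of cells. They held 52.1% of the HSPA1A UMIs of the both-cytokine-like set, 48.9% of the TNF-like set and 36.5% of the unstimulated-like set. Without them, HSPA1A had 0.134 to 0.462 UMIs per 10000 in both-cytokine-like samples, 0.288 to 0.812 in TNF-like samples and 0.423 to 0.701 in unstimulated-like samples. The log2 ratio of both-cytokine-like against unstimulated-like medians was then -1.19, with overlap, in place of -0.76.

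**Figure D3:**
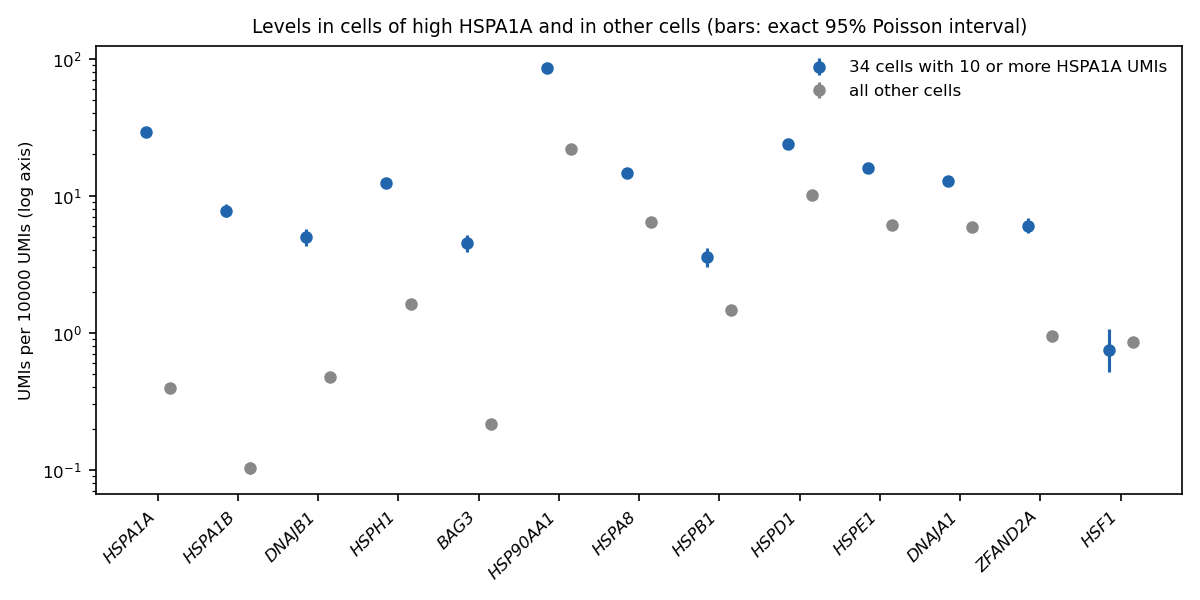
Level in UMIs per 10000 UMIs (log axis) of the 10 genes, DNAJA1, ZFAND2A and HSF1 in the 34 cells with 10 or more HSPA1A UMIs and in all other cells; bars are exact 95% Poisson intervals, mostly smaller than the points. Every gene apart from HSF1 is higher in the 34 cells, BAG3 at 4.48 against 0.216.

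Across cells, with the rare cells of high HSPA1A left in, the genes moved together weakly. Within each of 11 hashed samples of at least 100 cells, cells were thinned to 5000 UMIs and ranked. The median Spearman correlation over 45 gene pairs was 0.0803, from -0.03 to 0.31, and 13 pairs were above 0 in all 11 samples. That median was lower without the cells highest in the integrated stress response list, as given in the closing section, so it is not a value for the bulk of cells. The highest pairs were HSPA8 with HSPD1 at 0.31, HSP90AA1 with HSPA8 at 0.30, HSPD1 with HSPE1 at 0.25 and HSPH1 with HSPA8 at 0.23. HSPA1A with HSPA1B reached 0.19 and HSPA1A with DNAJB1 0.14, while HSPB1 stayed between -0.03 and 0.04 with every other gene. The more abundant genes have less counting noise, cells of a sample share their library, and in sparse counts such values are a description only.

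**Figure D4:**
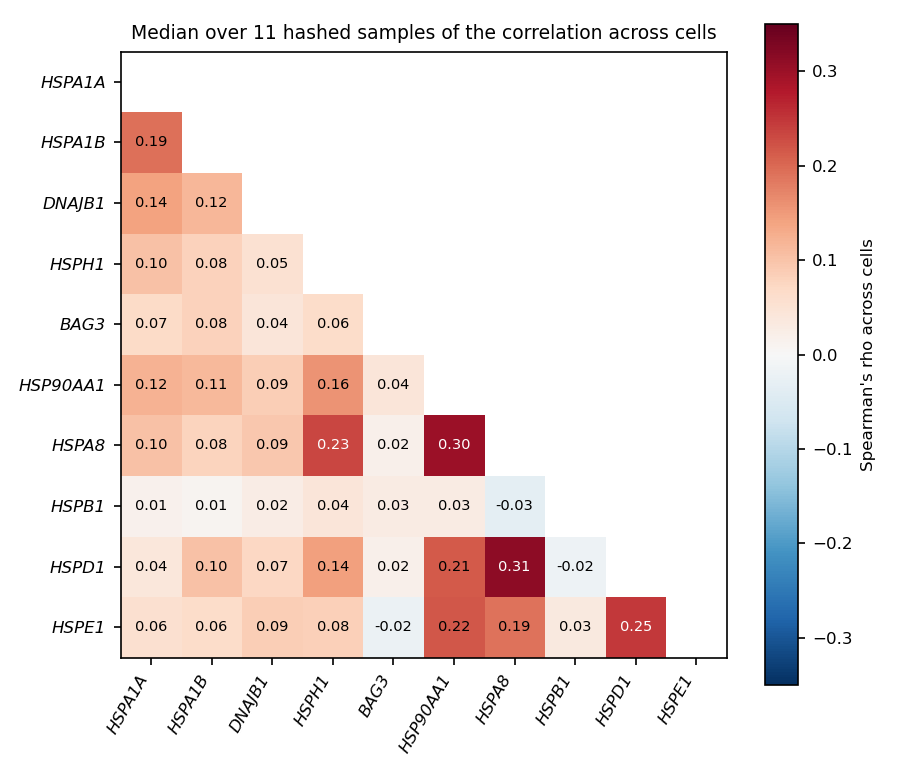
Median over 11 hashed samples of Spearman's rho between each pair of the 10 genes (rows and columns) across thinned cells; colour and printed number give rho. The highest values, up to 0.31, lie among HSP90AA1, HSPA8, HSPD1 and HSPE1 and between HSPH1 and HSPA8, and the HSPB1 values are near 0.

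The 10 genes also differed by cell state. In each hashed sample the 10% of cells highest in the integrated stress response list, which holds none of the 10 genes, were set against the rest. HSPA1A had 3.11 UMIs per 10000 in those cells against 0.470 in the rest and was higher in 14 of 15 samples, BAG3 had 0.644 against 0.225 (13 of 15), and DNAJB1 0.969 against 0.479 (15 of 15). HSPA8 had 6.08 against 6.56 (higher in 6 of 15) and HSPE1 6.21 against 6.19 (6 of 15). The remaining genes lay between: HSPA1B was higher in 13, HSPH1 in 12, HSPD1 in 11, and HSP90AA1 and HSPB1 in 9 of 15 samples.

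The 10% of cells highest in the G2 and mitosis list showed another order. HSP90AA1 had 31.5 UMIs per 10000 there against 21.2 in the rest, higher in 15 of 15 samples, and HSPD1 (12.3 against 9.95) and HSPE1 (7.44 against 6.01) were also higher in 15 of 15. HSPA1A had 0.576 against 0.733 and was higher in 3 of 15. DNAJB1 was higher in these cells too, at 0.734 against 0.494 (13 of 15), while HSPA8 was higher in 10, HSPB1 in 9, BAG3 in 8, HSPH1 in 7 and HSPA1B in 4. Many HSPA1A and HSPA1B UMIs lie in rare cells, which 10% of a sample's cells can miss. For this pair the low sample counts therefore do not show a difference by cell state, and HSPA1B had pooled levels of 0.183 against 0.189. In the 10% of cells with the highest mitochondrial share, a sign of damaged cells, HSPA8 had 4.83 against 6.68 in the rest and was lower in 14 of 15 samples, whereas HSPB1 had 1.55 against 1.49 (higher in 10 of 15). HSPE1 was also lower in 14, HSP90AA1, HSPD1 and BAG3 in 13, DNAJB1 and HSPH1 in 11, HSPA1A in 10 and HSPA1B in 8. The totals include mitochondrial UMIs, so a high mitochondrial share by itself lowers the levels of other genes in these cells.

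Barcodes that failed the filters were lower in the 10 genes even when mitochondrial counts were set aside. The 1731 removed barcodes, with a median mitochondrial share of 29.2%, had 47.9 UMIs per 10000 non-mitochondrial UMIs summed over the 10 genes, against 57.5 in kept cells. HSPA8 had 4.43 in removed barcodes against 7.46 in kept cells, and HSPB1 went the other way, at 1.90 against 1.71. In removed barcodes all 10 medians were lower in both-cytokine-like than in unstimulated-like samples, with a median log2 ratio of -0.40. Between TNF-like and unstimulated-like samples 7 were lower, while HSPA1A, HSPA1B and DNAJB1 were higher, with log2 ratios of 0.35, 1.10 and 0.51. Between both-cytokine-like and TNF-like samples 9 were lower. All 10 genes overlapped in each comparison. The share of all genes with lower medians is not given for removed barcodes, so these counts have no background beside them.

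The wider chaperone network held 98 further genes in 9 lists, of which 81 passed the minimum level. Between both-cytokine-like and unstimulated-like samples 17 of 81 lay lower and 3 higher without overlap, with a median log2 ratio of -0.17. Between TNF-like and unstimulated-like samples 2 lay lower and 4 higher, and between both-cytokine-like and TNF-like samples 8 lay lower and 3 higher. Read against the shares of all genes given above, none of these counts is far from the background. Under median-of-ratios scaling the counts were 10 lower and 6 higher, 1 lower and 7 higher, and 2 lower and 6 higher, in the same order of comparisons. Of all tested genes 9.58% then lay lower and 13.2% higher in the first comparison. The shares were 2.75% and 5.29% in the second, and 4.18% and 8.15% in the third.

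The J-domain list had 3 genes higher and 2 lower without overlap of 16 in both-cytokine-like against unstimulated-like samples, with a median log2 ratio of 0.060, and 4 higher and 1 lower under median-of-ratios scaling. DNAJA1, which pairs with HSPA8, had 8.38 to 9.93 UMIs per 10000 in both-cytokine-like samples, 5.08 to 5.93 in TNF-like samples and 3.66 to 4.63 in unstimulated-like samples, with a log2 ratio of 1.14 for both-cytokine-like against unstimulated-like samples. DNAJB6, which holds aggregation-prone proteins, had 1.65 to 2.47 in both-cytokine-like samples, 1.29 to 1.62 in TNF-like samples and 0.888 to 1.14 in unstimulated-like samples, with a log2 ratio of 0.93 in the same comparison. Both genes were free of overlap in all 3 comparisons, and remained so under median-of-ratios scaling. This is the opposite direction to DNAJB1, which lay lower in the both-cytokine-like than in the unstimulated-like set, with overlap and a log2 ratio of -0.54 under median-of-ratios scaling. The third higher gene, DNAJA2, named because it completes the count, had a log2 ratio of 0.18. SQSTM1, the autophagy receptor p62, was highest in TNF-like samples, although under median-of-ratios scaling these overlapped both-cytokine-like samples: it had 9.78 to 12.7 in both-cytokine-like samples, 13.5 to 16.5 in TNF-like samples and 8.72 to 10.3 in unstimulated-like samples.

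Partners of HSP70 and HSP90 were among the genes that lay lower. CACYBP, listed among HSP90 partners and known to bind the ubiquitin ligase SIAH1, had 0.472 to 0.668 UMIs per 10000 in both-cytokine-like samples, 0.603 to 0.859 in TNF-like samples and 0.866 to 1.00 in unstimulated-like samples. BAG2, BAG4 and STUB1, which act on the HSP70 cycle or ubiquitinate its clients, had log2 ratios of -0.999, -0.93 and -0.52 between both-cytokine-like and unstimulated-like samples, and FKBP4, an HSP90 immunophilin, had -0.62. These 5 genes lay lower without overlap under median-of-ratios scaling as well. In the mitochondrial quality control list 4 of 8 genes lay lower in the same comparison, beside 19.8% of all genes, and 2 of 8 under median-of-ratios scaling, beside 9.58%. GRPEL2, an exchange factor of mitochondrial HSP70, had a log2 ratio of -0.88 and lay lower under both scalings. The protease HTRA2 had -0.52, and -0.27 with overlap under median-of-ratios scaling. HSF1 had 0.628 to 0.879 in both-cytokine-like samples, 0.805 to 1.01 in TNF-like samples and 0.841 to 0.996 in unstimulated-like samples, with overlap between all sets.

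**Figure D5:**
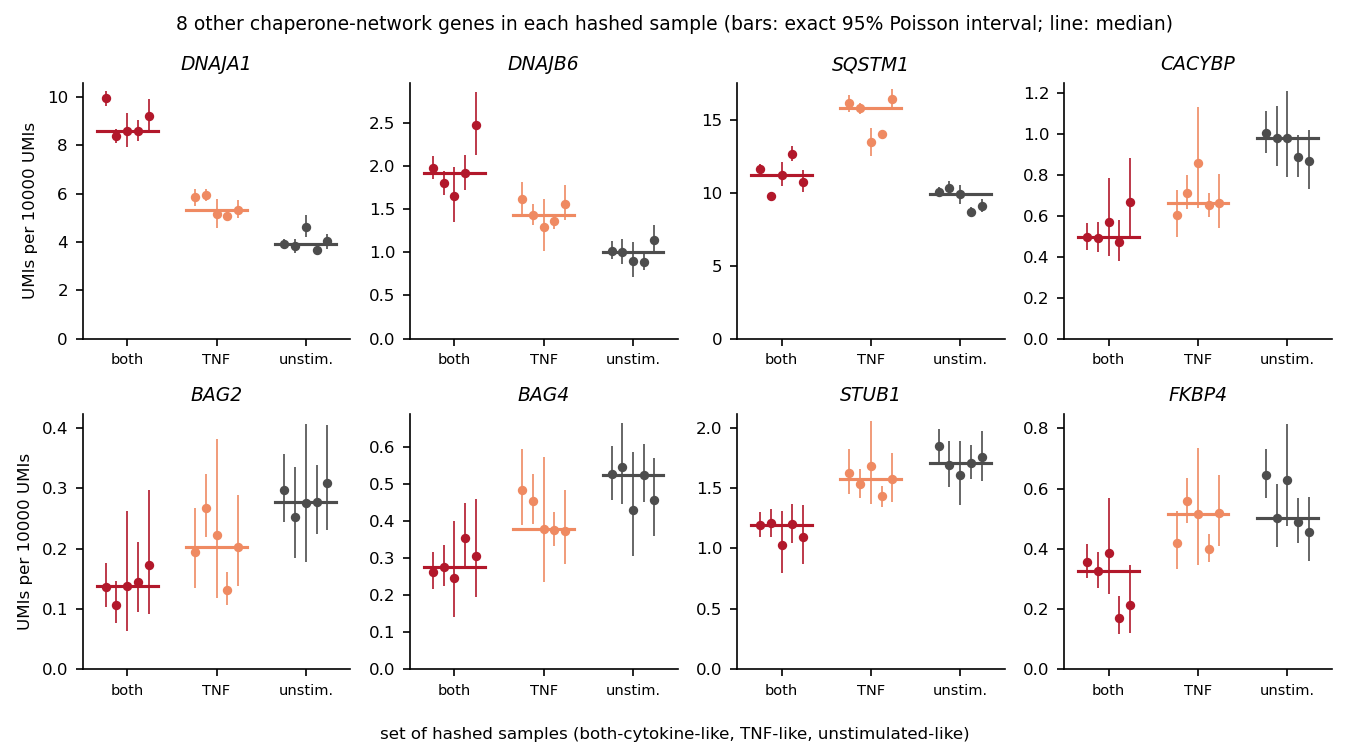
Level in UMIs per 10000 UMIs (vertical axes, from 0) of 8 other genes of the chaperone network in 15 hashed samples by set; points are hashed samples, bars exact 95% Poisson intervals and lines set medians. DNAJA1 and DNAJB6 are highest in both-cytokine-like, lower in TNF-like and lowest in unstimulated-like samples, without overlap, while CACYBP, BAG2, BAG4, STUB1 and FKBP4 lie lower in both-cytokine-like than in unstimulated-like samples.

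Lists of other stress programmes and of cell types were summed in the same way. The immediate early list had 12.5 to 17.7 UMIs per 10000 in both-cytokine-like samples, 13.5 to 17.2 in TNF-like samples and 8.60 to 11.3 in unstimulated-like samples. The integrated stress response list had 7.56 to 10.8 in both-cytokine-like samples, 7.61 to 12.7 in TNF-like samples and 6.33 to 10.8 in unstimulated-like samples. The epithelial tumour markers summed to 37.0 to 44.5 in both-cytokine-like samples, 38.2 to 59.1 in TNF-like samples and 63.4 to 79.6 in unstimulated-like samples. Of these markers KRT8, KRT18, KRT19 and EPCAM were abundant, and CDH1 and MUC16, at 0.0329 and 0.0191, were near 0. Of the markers of other cell types, 5 of 6 T or NK cell genes and 3 of 3 erythroid genes had 0 counts, where a count of 0 allows up to 0.000783 UMIs per 10000, and fibroblast, endothelial and B cell lists summed to 0.0224, 0.0235 and 0.00209. The myeloid list summed to 0.517, most of it CD68 and LYZ.

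The genes whose levels followed the summed level of the 10 genes most closely over 15 hashed samples were EIF4EBP1 and RPS15A (Spearman's rho 0.95 each), NOLC1 (0.93), TIMM17A, SNRPE, NOP56, DKC1, EBNA1BP2, SRM and LARP1, out of 2870 genes ranked; the 15 points share a library and the 3 sets. Across cells within samples, the genes most like HSPA1A included ZFAND2A (median rho 0.11), ARF4 (0.11) and DNAJA1 (0.098), values too weak to set them apart.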

How the data were processed

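The authors deposited a single table of raw counts, in UMIs, for 36601 genes and 10 hashtags over 5269 barcodes. Its header gives Cell Ranger 5.0.1, per the file headers, while Cell Ranger 2.1.1 and GRCh38 stand in the submitters' processing notes.

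Cells were kept with 1000 or more genes and no more than 20% mitochondrial UMIs. A cell was given to its top pair of hashtags if the second reached 10 counts and 3 times the third. This placed 88.9% of kept cells. The 394 others, mixed or unclear, were left out, and doublets within a hashed sample were not sought. Median depth was 10942 to 12405 UMIs per cell over the hashed samples.

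Counts were summed per hashed sample and scaled per 10000 UMIs, with exact 95% Poisson intervals (counting error only). Genes of pooled level 0.05 or more were compared by set medians and overlap. No p-value is given: the sets are inferred, cells are not replicates, and the tumour behind each hashed sample is not known here. For correlations, cells were thinned to 5000 UMIs, without 216 shallower cells. The overlap rule was run on simulated Poisson counts without added spread between hashed samples. That run checks the calculation and does not show how often the rule errs on these data. Tools were python 3.11.15, numpy 2.4.6, scipy 1.17.1, pandas 2.3.3 and matplotlib 3.10.9. Besides the 10 genes, the text names from the 3 genes of each wider list with the largest log2 ratio and the 10 most like the sum or HSPA1A. The genes, lists and sets were chosen with earlier results of these data known. Alternatives covered filters, pair rule, scaling, thinning and each hashed sample left out. Those without cycling cells and without cells of high HSPA1A were chosen after seeing the data.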

Additional observations from a re-analysis of the deposited data

Results flagged for a closer look

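In 3 of 33 sets of 5 values examined, 1 hashed sample lay far from the other 4, where chance alone gives about 1 in 20. That rate holds for independent values, and the 33 share hashed samples, so an excess over chance was not tested. HSPA1A in the unstimulated-like sample HTO3+HTO7 was at 1.79 UMIs per 10000, with the next sample at 0.808. DNAJB1 in the both-cytokine-like sample HTO2+HTO7 was at 0.514, with the next at 0.374. HSPB1 in the both-cytokine-like sample HTO4+HTO9 was at 0.935, with the next at 1.29. HTO3+HTO7 held 2 cells with 10 or more HSPA1A UMIs among its 71 cells, and HTO2+HTO7 held 6 among 347.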

How the results depend on the processing

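Under median-of-ratios size factors the number of the 10 genes free of overlap was 0 between both-cytokine-like and unstimulated-like samples (4 as reported) and 0 between TNF-like and unstimulated-like samples (1 as reported). The summed log2 ratio was then -0.15 in place of -0.39 for both-cytokine-like against unstimulated-like samples and -0.10 in place of -0.29 for both-cytokine-like against TNF-like samples, and HSPB1 in the first of these was at 0.024 in place of -0.21. Thinned cells gave 2 and 0 genes in the first 2 comparisons, leaving out cells with 2 or more G2 and mitosis UMIs gave 2 and 0, and a mitochondrial limit of 10%, which leaves 661 cells, gave 0 for TNF-like against unstimulated-like samples. Without cells of 10 or more HSPA1A UMIs the counts were 2 for TNF-like against unstimulated-like samples and 1 for both-cytokine-like against TNF-like samples (0 as reported), and without the 4 hashed samples of fewer than 100 cells the last was 3. With fewer samples per set, overlap becomes rarer for any gene. Apart from median-of-ratios scaling, the share of all genes under these settings is not given. The counts are therefore no result about the 10 genes. Over all genes, a minimum level of 0.2 gave 1743 genes free of overlap between both-cytokine-like and unstimulated-like samples in place of 2665, fewer genes being tested. The median correlation across cells was 0.0324 without the 10% of cells highest in the integrated stress response list, in place of 0.0803. Leaving out each hashed sample gave 4 to 5, 1 to 1 and 0 to 2 genes in the 3 comparisons and summed log2 ratios of -0.41 to -0.27, -0.13 to -0.07 and -0.32 to -0.17; the last count became 2 without HTO3+HTO9 and 1 without HTO2+HTO7, HTO3+HTO5 or HTO3+HTO8. For the changes other than those that come with fewer genes, cells or samples, the cause was not tested. No paired analysis was possible because no result comes from a test; the sets share the hashtags HTO2, HTO3 and HTO4, but the labels do not say what these stand for.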
